A study of Mus musculus with 15 samples.

Results

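The 41 genes described here are listed as markers of cells of the islet surroundings that a sort for endocrine cells is meant to leave behind. By class, 8 are listed for duct epithelium, 9 for endothelium, 13 for leukocytes and 11 for stromal cells (fibroblasts and pericytes). Each gene was represented by the transcript cluster annotated to it alone that had the highest mean over 15 arrays. For Spp1, a duct marker that encodes osteopontin, no cluster carried this symbol alone, so 40 of the 41 genes were measured, each by 1 cluster, out of 19938 genes in all. Levels are log2 signals as deposited, and a difference of 1 is a 2-fold change if the log base is 2, which the sources used here do not state.

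RNA from mouse pancreatic islet cells was hybridized to Mouse Gene 1.0 ST arrays, which carry several probes along the exons of each gene, with 500 ng of total RNA in each labelling reaction. The 5 Pdx1-deficient arrays held cells labelled PKO and reprogrammed, taken 5 days after tamoxifen. The 5 alpha arrays held YFP-positive cells, sorted by flow cytometry from mice 2 months old, with the genotype label RIP-CreER; Pdx1fl/+, RosaYFP. The 5 beta arrays held YFP-positive cells sorted in the same way at the same age, with the genotype label glucagon-Cre; RosaYFP. All were labelled as a mixed background of B6 and BALB/C. These driver labels are the reverse of where the insulin (RIP) and glucagon promoters usually act, and the groups below follow the sample titles. RIP-CreER is an insulin-promoter Cre that tamoxifen activates, RosaYFP is a reporter that Cre turns on, and Pdx1fl/+ is a heterozygous floxed allele. The labels give neither the deleted exon nor the driver in the Pdx1-deficient mice. How those cells were sorted, whether controls received tamoxifen and whether arrays came from separate animals are not stated either, and p-values therefore cover the spread among these arrays, which may be technical.

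Markers of this kind serve as a measure of bystander cells in a sort. Islets are threaded by fenestrated capillaries, whose endothelium is wrapped by pericytes and patrolled by resident macrophages, while ducts and acini adjoin the islet rim. Duct cells carry bicarbonate-rich fluid and express simple-epithelial keratins, endothelial cells express receptors for vascular growth factors, leukocytes share signalling adaptors and the phosphatase Ptprc, and stromal cells build collagen matrix. In RNA from many cells, fewer cells of a type and less RNA per cell cannot be told apart, and neither can a bystander cell and a low level of the same gene in the sorted cells.

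The identity of the arrays sets the frame. Pdx1 read 9.12, 7.83, 7.68, 6.53 and 7.59 in Pdx1-deficient replicates 1 to 5, against 8.85 to 9.33 over the beta arrays, so the library labelled Pdx1-deficient replicate 1 lay at the beta level. In the library labelled alpha replicate 2, the mean of 9 alpha-cell genes was 8.42, where the other 4 alpha arrays had 9.29 to 9.44 and beta arrays 7.79 to 8.12. Counts of calls, and the differences of Krt7, Tspan8, Rgs5, Sparc and Vim between alpha and beta arrays, are given with and without these 2 arrays. Arrays also differed in their dim range: the 25th percentile of all genes was 5.02 to 5.21 in Pdx1-deficient arrays and 5.00 to 5.17 in alpha arrays, against 4.97 to 5.01 in beta arrays. The mean of 22 acinar genes, most of them for secreted enzymes, was 11.11 in alpha replicate 5 and 5.50 to 6.64 in the other 14 arrays.

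Promoters are printed below for 3 of the 40 measured markers, as the 250 bases before the annotated start, from RefSeq on GRCm38.p6. These 3 passed a limma adjusted p of 0.05 between alpha and beta arrays once those 2 arrays were left out (Rgs5 and Sparc higher, Krt7 lower). In that setting, added after the data were seen, 7.15% of all genes passed, so the count of markers is near the share of all genes. They lie at chr1:169655251-169655500 on the plus strand for Rgs5, chr11:55420081-55420330 on the minus strand for Sparc and chr15:101412153-101412402 on the plus strand for Krt7. Capitals mark matches on either strand to the TATA box (TATAAA), the inverted or forward CCAAT box, the GC box bound by Sp factors (GGGCGG) or a homeodomain core (TAATTA), and a match is a description, not a binding site.
Rgs5: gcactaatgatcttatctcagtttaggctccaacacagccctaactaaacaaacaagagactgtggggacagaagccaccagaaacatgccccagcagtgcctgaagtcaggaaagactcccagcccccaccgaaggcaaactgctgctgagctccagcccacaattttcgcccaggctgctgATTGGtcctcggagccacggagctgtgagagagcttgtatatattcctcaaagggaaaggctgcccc
Sparc: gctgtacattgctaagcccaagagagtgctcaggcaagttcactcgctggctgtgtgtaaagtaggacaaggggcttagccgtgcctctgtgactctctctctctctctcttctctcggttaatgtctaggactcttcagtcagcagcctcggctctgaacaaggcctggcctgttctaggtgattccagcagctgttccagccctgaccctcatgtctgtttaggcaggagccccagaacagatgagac
Krt7: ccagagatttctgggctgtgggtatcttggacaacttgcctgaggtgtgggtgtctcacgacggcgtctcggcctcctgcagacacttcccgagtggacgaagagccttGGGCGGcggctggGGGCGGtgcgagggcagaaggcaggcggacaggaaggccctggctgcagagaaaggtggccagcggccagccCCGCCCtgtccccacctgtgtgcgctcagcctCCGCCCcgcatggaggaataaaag
The Rgs5 window held 1 CCAAT match, written ATTGG on the printed strand, 67 bases before the start. The Sparc window held no match. The Krt7 window held 4 matches to GGGCGG, 141, 128, 56 and 24 bases before the start. Among 32851 promoter windows of the same length, 33.9% held CCAAT, 32.7% held GGGCGG, 12.4% held TATAAA and 4.84% held TAATTA. The GC content was 53.6% for Rgs5, 54.0% for Sparc and 66.0% for Krt7, where the median over all windows was 52.4%. Of the 41 genes, 25 had an entry in the promoter table.

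Most of these markers were dim on every kind of array. For 30 of 40 (75.0%) the group mean lay below the array median in all 3 groups, against 46.3% of all genes, and for 12 it lay below the 25th percentile in all 3 groups. The values carry no detection call, so a signal in that range cannot be told from no expression, and probes differ in brightness, so no marker is set against another. The highest and lowest of the 15 arrays differed by 1 or more for 11 of 40 markers (27.5%), against 36.8% of all genes, with a median range of 0.70 for the markers and 0.79 for all genes. Spread was wide in the duct class, where 5 of 7 markers (71.4%) had such a range and the median range was 1.91. It was narrower elsewhere, with 1 of 9 endothelial, 3 of 13 leukocyte and 2 of 11 stromal markers.

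**Figure D1:**
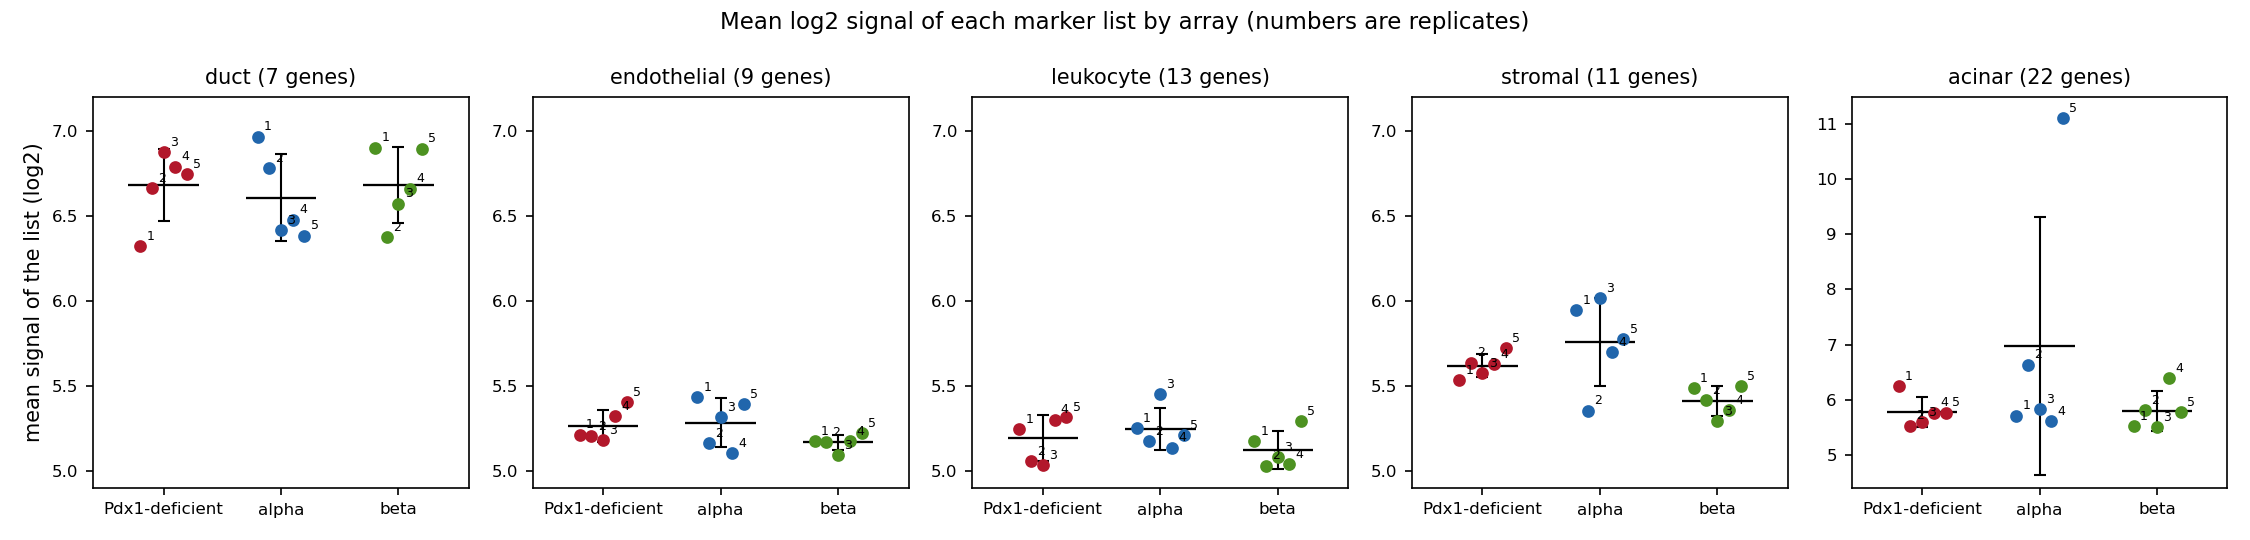
Mean log2 signal of the duct, endothelial, leukocyte and stromal markers and of 22 acinar genes on each array (points, numbered by replicate), by group. Lines are means and bars SD (n = 5 each), and the acinar panel has its own axis. Endothelial and leukocyte means stay within 5.03 to 5.45 on all arrays, stromal means reach 6.01 in alpha replicate 3, and the acinar mean of alpha replicate 5 is 11.11.

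Averaged over its measured genes, the duct class read 6.68 ± 0.21 in Pdx1-deficient, 6.60 ± 0.26 in alpha and 6.68 ± 0.22 in beta arrays (SD, n = 5 each, as for the classes that follow). Without its bright markers Krt7, Ambp and Tspan8, set aside after their values were seen, it read 4.71 ± 0.14, 4.78 ± 0.31 and 4.61 ± 0.12 in the same order. The endothelial class read 5.26 ± 0.09 in Pdx1-deficient and 5.28 ± 0.14 in alpha arrays, against 5.17 ± 0.05 in beta arrays. The leukocyte class read 5.19 ± 0.13 in Pdx1-deficient and 5.25 ± 0.12 in alpha arrays, against 5.12 ± 0.11 in beta arrays. Group ranges overlapped in these 3 classes. The stromal class read 5.62 ± 0.07 in Pdx1-deficient and 5.76 ± 0.26 in alpha arrays, against 5.41 ± 0.09 in beta arrays. Every Pdx1-deficient array (5.53 to 5.72) and every alpha array other than replicate 2 (5.70 to 6.01, with replicate 2 at 5.35) lay above the highest beta array (5.50). Without Rgs5, Sparc and Vim, which were set aside after their values were seen, the stromal class read 5.50 ± 0.12, 5.50 ± 0.14 and 5.35 ± 0.07 in Pdx1-deficient, alpha and beta arrays. The Pdx1-deficient arrays (5.39 to 5.67) then overlapped the beta arrays (5.27 to 5.43). These class means carry no test, because the genes were chosen with results known.

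**Figure D2:**
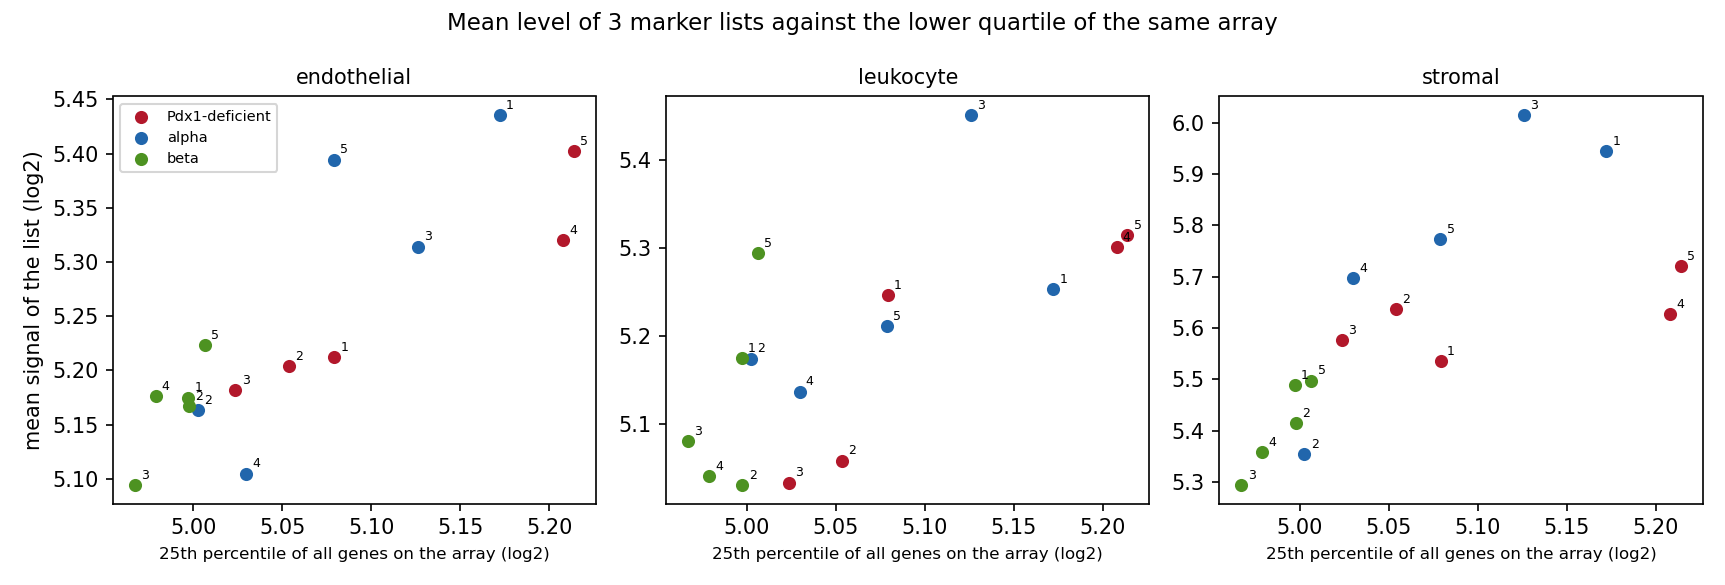
Mean log2 signal of the endothelial, leukocyte and stromal markers (vertical axes) against the 25th percentile of all genes on the same array (horizontal axes), 1 point per array, numbered by replicate. Pdx1-deficient replicates 4 and 5 have the highest 25th percentiles (5.21 each) and the highest endothelial and leukocyte means of their group.

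In the Pdx1-deficient group, endothelial and leukocyte means were highest on the arrays with the highest dim end, and the part of this in the group differences was not tested. Pdx1-deficient replicates 4 and 5, both with a 25th percentile of 5.21, had endothelial means of 5.32 and 5.40, against 5.18 to 5.21 in replicates 1 to 3 of that group. Their leukocyte means were 5.30 and 5.31, where replicates 1 to 3 had 5.25, 5.06 and 5.03. Other means did not all follow this order. The duct mean of that group was highest in replicate 3 (6.87), whose 25th percentile of 5.02 was the lowest of the group. Its stromal mean was highest in replicate 5 (5.72), but was 5.64 in replicate 2 and 5.63 in replicate 4. Without Krt7, Ambp and Tspan8, the duct mean read 4.69, 4.66, 4.53, 4.81 and 4.89 in Pdx1-deficient replicates 1 to 5. Without Rgs5, Sparc and Vim, the stromal mean read 5.44, 5.43, 5.39, 5.59 and 5.67. Both reduced means rose in the order of the 25th percentile in that group. In the alpha group the reduced stromal mean did so and the reduced duct mean did not. The highest leukocyte mean of the beta group (5.29, replicate 5) came with a 25th percentile of 5.01, the highest of that group. It also came with a C1qa reading of 8.41, where the other beta arrays had 6.49 to 7.21. Within the Pdx1-deficient group, replicate 5 held the highest level of 6 of 9 endothelial, 6 of 13 leukocyte and 5 of 11 stromal markers. Within the alpha group, replicate 3 held the highest level of 4 of 9 endothelial, 7 of 13 leukocyte and 5 of 11 stromal markers. Alpha replicate 2 held the highest level of none of the 33 markers of these 3 classes and of 3 of 7 duct markers.

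Between Pdx1-deficient and beta arrays, 0 of 40 markers passed an adjusted p of 0.05 in limma, against 1.09% of all 19938 genes. At an unadjusted p under 0.05 there were 2 markers, C1qb and Lum, both higher, against 21.8% of all genes. Between alpha and beta arrays, 1 of 40 passed, Rgs5, against 4.04% of all genes (0.893% higher). At an unadjusted p under 0.05 there were 8, of which 7 were higher and Krt7 was lower, against 20.7% of all genes. Between Pdx1-deficient and alpha arrays, 0 of 40 passed, against 0% of all genes, and 3 had an unadjusted p under 0.05 (Krt7 higher, Rgs5 and Sparc lower), against 6% of all genes. Without Pdx1-deficient replicate 1 and alpha replicate 2, the counts of markers past the threshold were 0 between Pdx1-deficient and beta arrays (3.14% of all genes), 3 between alpha and beta arrays (7.15%) and 0 between Pdx1-deficient and alpha arrays (0.888%). The alpha and Pdx1-deficient comparisons share the beta arrays.

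The signs of the small differences were divided much as those of dim genes at large. Differences from beta arrays were positive for 33 of 40 markers in Pdx1-deficient arrays (82.5%, median 0.12) and also for 33 of 40 in alpha arrays (median 0.14). Among genes whose mean lay below the median of all gene means, 82.7% were positive in Pdx1-deficient arrays (median 0.12) and 77.4% in alpha arrays (median 0.09). Over all genes the medians were 0.06 and 0.04. After quantile normalization, the differences from beta arrays were positive for 20 of 40 markers in Pdx1-deficient arrays and 22 of 40 in alpha arrays. Between Pdx1-deficient and alpha arrays the median over the markers was -0.01, with 18 of 40 positive. By class, the median difference between Pdx1-deficient and beta arrays was -0.02 for duct, 0.08 for endothelial, 0.11 for leukocyte and 0.18 for stromal markers. Between alpha and beta arrays it was 0.08, 0.14, 0.10 and 0.23 in the same order, and the duct median was -0.10 without alpha replicate 2. After quantile normalization, the endothelial and leukocyte medians between Pdx1-deficient and beta arrays were -0.04 and -0.02, and the duct and leukocyte medians between alpha and beta arrays were -0.04 and -0.03. With the array median over all clusters subtracted, the endothelial median between Pdx1-deficient and beta arrays was -0.02 and the duct median between alpha and beta arrays was -0.01. All 11 stromal markers had a positive difference from beta arrays in both groups, and the stromal median was still positive after quantile normalization, at 0.10 for Pdx1-deficient and 0.13 for alpha arrays.

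**Figure D3:**
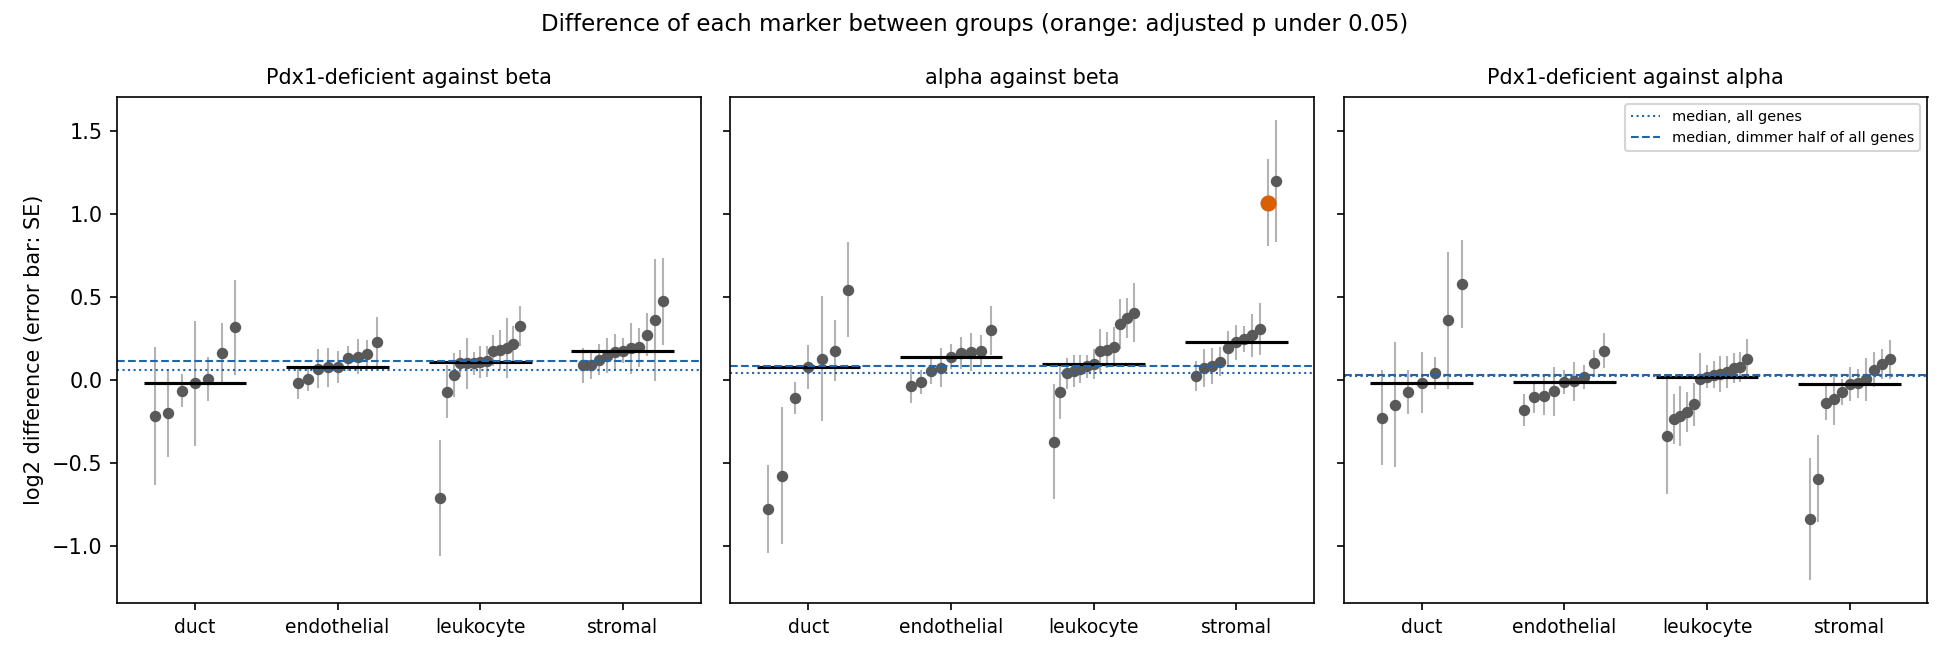
Log2 difference of each marker (points, bars SE) in the comparisons of Pdx1-deficient with beta, alpha with beta, and Pdx1-deficient with alpha arrays, by class. Black lines are class medians, the dotted line is the median of all genes and the dashed line that of genes below the median of gene means. Rgs5 between alpha and beta arrays (orange, 1.07) passed the threshold and Sparc lies beside it at 1.20, while most other points lie near the dashed line, and the endothelial and leukocyte medians between Pdx1-deficient and beta arrays turn negative after quantile normalization, as do the duct and leukocyte medians between alpha and beta arrays.

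Of the 6 markers with means above the array median in all 3 groups, 3 were duct markers: Krt7, Ambp and Tspan8. Krt7, a keratin of simple epithelia, read 8.62, 9.14, 9.78, 9.34 and 9.22 in Pdx1-deficient arrays, 9.07, 9.20, 8.21, 8.31 and 8.42 in alpha arrays and 10.11, 8.91, 9.10, 9.21 and 9.75 in beta arrays. Alpha replicates 3, 4 and 5 lay below every array of the other groups, while alpha replicates 1 and 2 lay within their range. The difference between alpha and beta arrays was -0.78 (SE 0.27, limma adjusted p = 0.114). It was -0.92 (SE 0.25, limma adjusted p = 0.0431) without alpha replicate 2 and Pdx1-deficient replicate 1. Between Pdx1-deficient and beta arrays Krt7 differed by -0.20 (SE 0.27, limma adjusted p = 0.659).

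Tspan8, which encodes a tetraspanin of epithelial membranes, read 8.93, 10.16, 10.72, 10.17 and 9.32 in Pdx1-deficient arrays, 9.98, 10.68, 9.36, 9.44 and 8.03 in alpha arrays and 10.51, 9.80, 10.11, 9.69 and 10.26 in beta arrays. Its lowest array was alpha replicate 5, and the difference between alpha and beta arrays of -0.58 (SE 0.41, limma adjusted p = 0.444) was -0.21 without it. Without alpha replicate 2 and Pdx1-deficient replicate 1 it was -0.87 (SE 0.35, limma adjusted p = 0.156), and the difference between Pdx1-deficient and alpha arrays was then 0.89 (SE 0.37, limma adjusted p = 0.517), against 0.36 with all arrays. Ambp, the precursor of a heme-binding plasma protein and of the protease inhibitor bikunin, read 7.96, 8.71, 9.51, 8.77 and 9.12 in Pdx1-deficient arrays, 9.41, 10.05, 8.70, 8.88 and 7.78 in alpha arrays and 9.11, 8.01, 8.86, 8.85 and 9.34 in beta arrays. All 3 groups overlapped. Ambp, like Tspan8, read lowest of the 15 arrays in alpha replicate 5, the array with the acinar mean of 11.11. Whether the signal of these bright markers came from duct cells or from the sorted cells was not tested. Ambp, Tspan8 and Krt7 were each low in Pdx1-deficient replicate 1, at 7.96, 8.93 and 8.62, the lowest of that group for each.

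The remaining duct markers were dim. Muc1, an apical mucin, read 5.24, 5.51, 5.31, 5.56 and 5.93 in Pdx1-deficient arrays, 5.56, 5.02, 5.46, 5.52 and 7.13 in alpha arrays and 5.19, 5.03, 5.11, 5.28 and 5.35 in beta arrays. The reading of 7.13 came from alpha replicate 5, the array with the acinar mean of 11.11. Muc1 differed by 0.54 (SE 0.29, limma adjusted p = 0.295) between alpha and beta arrays and by 0.19 without that array. Krt19, the keratin most used to define ducts, stayed between 4.77 and 5.62 on all arrays, with means of 5.01 ± 0.12 in Pdx1-deficient, 5.08 ± 0.33 in alpha and 5.00 ± 0.13 in beta arrays (SD, n = 5 each). Cftr, the apical chloride channel, ranged over 3.56 to 4.04, and the annexin gene Anxa3 over 4.07 to 5.33 with its highest reading in alpha replicate 1. Both had means below the 25th percentile in all 3 groups. In alpha replicate 5, Krt19 read 5.11 and Cftr 3.63, within their ranges in the other arrays. Of 17 further duct and epithelial genes, 1 passed the threshold between alpha and beta arrays, where 4.04% of all genes did: Cldn7, a tight-junction claudin, was lower in alpha arrays (8.05 ± 0.20) than in beta arrays (8.80 ± 0.37), by -0.75 (SE 0.20, limma adjusted p = 0.0476). All its alpha arrays lay below its beta arrays, as for 4.05% of all genes. Clu, the secreted chaperone clusterin, and Prom1, which encodes the membrane protein prominin, differed by -0.76 and -0.48 between Pdx1-deficient and beta arrays (limma adjusted p = 0.0849 and 0.290). Tff2, a trefoil peptide, reached 10.52 in alpha replicate 5, where the other 4 alpha arrays had 5.97 to 6.34 and beta arrays 5.70 to 7.47.

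**Figure D4:**
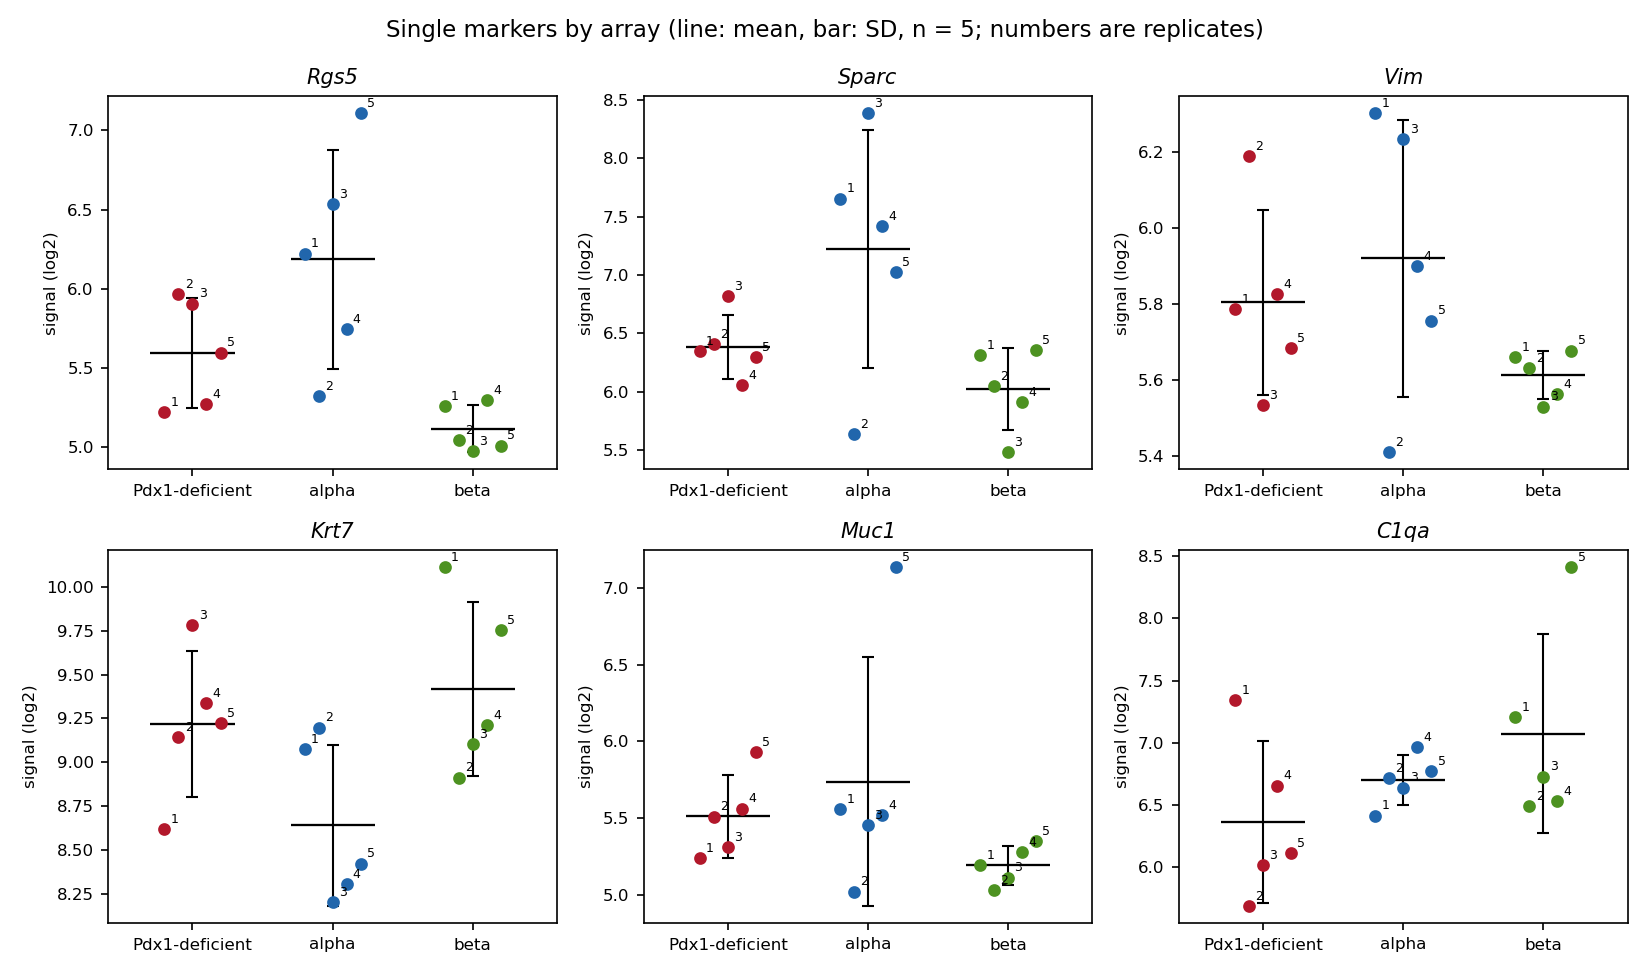
Log2 signal of 6 markers on each array (points, numbered by replicate), with group means (lines) and SD (bars, n = 5 each). Rgs5 is higher in every alpha array than in any beta array, and within the alpha group Sparc and Vim are lowest in replicate 2. Single arrays stand apart for Muc1 (alpha replicate 5, 7.13) and C1qa (beta replicate 5, 8.41). Axes do not start at 0.

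Endothelial markers showed no difference between groups that passed the test, and all 9 had means below the array median in every group. Emcn, a sialomucin of capillaries and veins, read 4.11, 4.04, 3.94, 4.23 and 4.22 in Pdx1-deficient arrays, 4.75, 4.03, 4.08, 3.81 and 4.19 in alpha arrays and 3.59, 3.95, 3.76, 4.04 and 4.03 in beta arrays. The groups overlapped, and the difference between alpha and beta arrays was 0.30 (SE 0.15, limma adjusted p = 0.262), and 0.15 without alpha replicate 1. Pecam1, the junctional adhesion molecule that defines endothelium, read 5.54, 5.57, 5.66, 5.67 and 5.87 in Pdx1-deficient arrays, 5.93, 5.47, 5.76, 5.57 and 6.05 in alpha arrays and 5.58, 5.78, 5.34, 5.58 and 5.65 in beta arrays. It differed by 0.17 (SE 0.12, limma adjusted p = 0.425) between alpha and beta arrays, by 0.09 without alpha replicate 5 and by 0.11 without beta replicate 3.

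Kdr, the main signalling receptor for vascular endothelial growth factor, read 4.74, 4.76, 4.69, 4.78 and 4.89 in Pdx1-deficient arrays, 4.76, 4.76, 4.82, 4.76 and 5.26 in alpha arrays and 4.76, 4.76, 4.55, 4.74 and 4.67 in beta arrays. The reading of 5.26 in alpha replicate 5 stood alone, and the difference between alpha and beta arrays of 0.18 (SE 0.10, limma adjusted p = 0.309) was 0.08 without it. Esam, an adhesion molecule of endothelial junctions and platelets, read 5.85, 5.79, 5.69, 6.02 and 5.94 in Pdx1-deficient arrays, 6.32, 6.08, 5.82, 5.89 and 6.10 in alpha arrays and 5.94, 5.96, 5.78, 5.92 and 5.79 in beta arrays. Its difference between Pdx1-deficient and alpha arrays was -0.18 (SE 0.10, limma adjusted p = 0.893), and -0.11 without alpha replicate 1. The other 5 varied by 0.32 to 0.61 over the 15 arrays: Plvap, which builds the diaphragms of fenestrae (5.57 to 6.16), the decoy receptor Flt1 (4.68 to 5.01), the angiopoietin receptor family kinases Tie1 (5.41 to 5.80) and Tek (4.28 to 4.60), and the vascular guidance receptor Robo4 (5.67 to 6.28).

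Of 20 further endothelial genes, 0 passed in any of the 3 comparisons, and 5 had an unadjusted p under 0.05 between Pdx1-deficient and beta arrays, against 21.8% of all genes. Icam2, an adhesion molecule of endothelium and leukocytes, averaged 6.38 ± 0.10 in Pdx1-deficient and 6.37 ± 0.16 in alpha arrays, against 5.97 ± 0.22 in beta arrays (SD, n = 5 each). Its difference from beta arrays was 0.42 (SE 0.11, limma adjusted p = 0.0709) in Pdx1-deficient and 0.40 (SE 0.11, limma adjusted p = 0.0520) in alpha arrays. Prox1, a homeobox factor of lymphatic endothelium that pancreatic endocrine cells also express, averaged 8.91 ± 0.48 in Pdx1-deficient and 9.12 ± 0.24 in alpha arrays, against 8.44 ± 0.40 in beta arrays, with a difference of 0.68 (SE 0.22, limma adjusted p = 0.104) between alpha and beta arrays.

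Leukocyte markers gave no call in any of the 3 comparisons. Ptprc, the phosphatase carried by leukocytes in general, ranged over 4.33 to 4.82, with means of 4.59 ± 0.21 in Pdx1-deficient, 4.51 ± 0.06 in alpha and 4.47 ± 0.07 in beta arrays (SD, n = 5 each). Adgre1, the macrophage receptor F4/80, ranged over 3.83 to 4.21. Both had means below the 25th percentile of the array in all 3 groups, as did Lyz2, Cd52 and Laptm5. Macrophages make the 3 chains of the complement factor C1q together. C1qa read 7.34, 5.69, 6.02, 6.66 and 6.11 in Pdx1-deficient arrays, 6.42, 6.71, 6.64, 6.97 and 6.77 in alpha arrays and 7.21, 6.49, 6.73, 6.53 and 8.41 in beta arrays. Its highest array, beta replicate 5, read 5.33 for C1qb and 5.20 for C1qc, each inside the range of the other beta arrays (5.09 to 5.38 and 5.10 to 5.43). Between Pdx1-deficient and beta arrays C1qa differed by -0.71 (SE 0.35, limma adjusted p = 0.244), and by -0.38 without beta replicate 5. C1qb and C1qc had differences of the other sign, 0.33 (SE 0.12, limma adjusted p = 0.149) and 0.22 (SE 0.11, limma adjusted p = 0.260). Both had their highest alpha reading in replicate 3, at 5.76 for C1qb and 5.87 for C1qc, and C1qb also read 5.79 in Pdx1-deficient replicate 5.

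Tyrobp, a signalling adaptor of myeloid and natural killer cells, read 5.90, 5.82, 5.45, 6.08 and 6.19 in Pdx1-deficient arrays, 6.13, 6.02, 6.70, 5.77 and 5.90 in alpha arrays and 6.09, 5.70, 5.65, 5.67 and 5.36 in beta arrays. Alpha replicate 3 was the highest array, and the difference between alpha and beta arrays was 0.41 (SE 0.18, limma adjusted p = 0.218), and 0.26 without that array. Lyz2, the lysozyme of macrophages and neutrophils, read 4.04, 4.19, 4.00, 4.07 and 4.21 in Pdx1-deficient arrays, 4.08, 4.45, 4.71, 3.94 and 4.31 in alpha arrays and 3.86, 3.84, 4.04, 3.91 and 3.95 in beta arrays. It was again highest in alpha replicate 3, and the difference of 0.38 (SE 0.12, limma adjusted p = 0.0906) between alpha and beta arrays passed without alpha replicate 4 (0.46, limma adjusted p = 0.0442). Cd68, a lysosomal glycoprotein of macrophages (5.57 to 6.69), was likewise highest in alpha replicate 3, and differed by 0.34 (SE 0.15, limma adjusted p = 0.226) between alpha and beta arrays.

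The other leukocyte markers overlapped between groups. They were the endotoxin co-receptor Cd14 (4.77 to 5.70), the macrophage growth factor receptor Csf1r (4.84 to 5.41), the Fc receptor chain Fcer1g (5.19 to 6.08), the small surface glycoprotein Cd52 (4.59 to 5.01) and the lysosomal membrane protein Laptm5 (4.64 to 5.10). Of 29 further leukocyte genes, 0 passed in any comparison, and 10 had an unadjusted p under 0.05 between Pdx1-deficient and beta arrays, against 21.8% of all genes. All 10 were higher. Of 9969 genes whose mean lay below the median of all gene means, 1651 had such a p-value, a smaller share than 10 of 29. Of those 1651, 1498 were higher. The 10 included Il1b, the cytokine interleukin-1 beta (0.35, limma adjusted p = 0.102), and Cd4, a receptor of helper T cells (0.34, limma adjusted p = 0.127). Between alpha and beta arrays the larger differences were those of Cd83, an activation antigen of dendritic cells (0.32, limma adjusted p = 0.117), and S100a9, a calcium-binding protein of neutrophils (0.28, limma adjusted p = 0.118). Pdx1-deficient replicate 4 held the highest level of 18 of the 29 further genes within its group, and of 13 over all arrays. Their mean read 5.51 there, 5.37 in replicate 5 with the same 25th percentile of 5.21, and 5.14 to 5.24 in replicates 1 to 3. The cause was not tested.

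The stromal class held the marker that passed the test. Rgs5, a regulator of G-protein signalling used to mark pericytes, read 5.22, 5.97, 5.91, 5.27 and 5.60 in Pdx1-deficient arrays, 6.22, 5.33, 6.53, 5.74 and 7.11 in alpha arrays and 5.26, 5.05, 4.98, 5.30 and 5.01 in beta arrays. Each alpha array lay above each beta array, by little in alpha replicate 2 (5.33 against a highest beta reading of 5.30), while Pdx1-deficient arrays overlapped both groups. Genes whose alpha arrays all lay above the beta arrays made up 2.29% of all genes. If the log base is 2, Rgs5 was 2.10-fold higher in alpha than in beta arrays. Its means were 6.19 ± 0.69 and 5.12 ± 0.15 (SD, n = 5 each), and it differed by 1.07 as deposited (SE 0.26, limma adjusted p = 0.0365). Rgs5 passed under 12 of 23 alternative settings, with limma adjusted p-values from 0.00442 to 0.0942 and differences from 0.84 to 1.28. Some of these passes could not move the difference from 1.07. Pdx1-deficient arrays, left out in turn, are not part of it, and Rgs5 has 1 cluster to average. When each alpha or beta array was left out in turn, Rgs5 passed only without alpha replicate 2 or alpha replicate 4. Its highest reading, 7.11, was in alpha replicate 5, the array with the acinar mean of 11.11, and without that array the difference was 0.84 (limma adjusted p = 0.0655). Without alpha replicate 2 and Pdx1-deficient replicate 1 it was 1.28 (SE 0.23, limma adjusted p = 0.00457). Between Pdx1-deficient and beta arrays the difference was 0.48 (SE 0.26, limma adjusted p = 0.291), and between Pdx1-deficient and alpha arrays it was -0.59 (limma adjusted p = 0.800).

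Other pericyte and smooth muscle genes did not show a difference of that size between alpha and beta arrays. Pdgfrb, the growth factor receptor that recruits pericytes (4.97 to 5.61 on all arrays), differed by 0.08 (SE 0.11, limma adjusted p = 0.675), and Acta2, smooth muscle actin (4.90 to 5.28), by 0.11 (SE 0.09, limma adjusted p = 0.486). Among 29 further stromal genes, pericyte genes included, 0 passed in any of the 3 comparisons. The larger differences were those of Tagln, an actin-binding protein of smooth muscle, and Mcam, an adhesion molecule of pericytes and endothelium. Tagln differed from beta arrays by 0.40 (limma adjusted p = 0.118) in Pdx1-deficient and by 0.42 (limma adjusted p = 0.0783) in alpha arrays, and Mcam by 0.37 (limma adjusted p = 0.133) and 0.38 (limma adjusted p = 0.112) in the same order.

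Sparc, a secreted collagen-binding glycoprotein, read 6.35, 6.40, 6.81, 6.05 and 6.30 in Pdx1-deficient arrays, 7.65, 5.63, 8.38, 7.42 and 7.02 in alpha arrays and 6.31, 6.04, 5.48, 5.91 and 6.36 in beta arrays. Alpha replicates 1, 3, 4 and 5 lay above every Pdx1-deficient and every beta array, and alpha replicate 2 lay below all Pdx1-deficient arrays and inside the beta range. Sparc differed by 1.20 (SE 0.37, limma adjusted p = 0.0791) between alpha and beta arrays and by 1.60 (SE 0.26, limma adjusted p = 0.00245) without alpha replicate 2 and Pdx1-deficient replicate 1. Between Pdx1-deficient and alpha arrays it differed by -0.84 (SE 0.37, limma adjusted p = 0.800). With alpha replicate 2 alone left out that difference was -1.24 (SE 0.25, limma adjusted p = 0.0348), and with Pdx1-deficient replicate 1 left out as well it was -1.23 (limma adjusted p = 0.0556). Between Pdx1-deficient and beta arrays it was 0.36 (SE 0.37, limma adjusted p = 0.550).

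Vim, the intermediate filament vimentin of mesenchymal cells, read 5.79, 6.19, 5.54, 5.83 and 5.68 in Pdx1-deficient arrays, 6.30, 5.41, 6.24, 5.90 and 5.76 in alpha arrays and 5.66, 5.63, 5.53, 5.56 and 5.68 in beta arrays. Alpha replicates 1 and 3 were highest and alpha replicate 2 lowest of all 15 arrays. The difference between alpha and beta arrays was 0.31 (SE 0.15, limma adjusted p = 0.271), and 0.44 (SE 0.14, limma adjusted p = 0.0815) without alpha replicate 2 and Pdx1-deficient replicate 1.

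The fibrillar collagens, main products of fibroblasts, gave no call. Col1a1 ranged over 6.46 to 7.10, Col1a2 over 6.05 to 6.73 and Col3a1 over 5.89 to 6.41, and their differences between alpha and beta arrays were 0.07, 0.27 and 0.19 (limma adjusted p = 0.744, 0.254 and 0.307). Between Pdx1-deficient and beta arrays they were 0.20, 0.27 and 0.17 (limma adjusted p = 0.315, 0.236 and 0.337). In alpha replicates 3 and 1, where Sparc read 8.38 and 7.65, Col1a1 read 7.03 and 6.94. These readings lay inside the range of the Pdx1-deficient arrays (6.71 to 7.10) and above that of the beta arrays (6.56 to 6.88). On the same 2 arrays Col1a2 read 6.73 and 6.68 and Col3a1 6.32 and 6.38, above their highest beta readings of 6.39 and 6.09. The proteoglycan genes Dcn (4.73 to 5.38) and Lum (3.37 to 3.92) differed by 0.23 and 0.25 between alpha and beta arrays (limma adjusted p = 0.229 and 0.0855). Lum passed without alpha replicate 2 (0.28, limma adjusted p = 0.0481), and its means lay below the 25th percentile in all 3 groups. Fn1, fibronectin, ranged over 5.02 to 5.56 and differed by 0.02 between alpha and beta arrays and by 0.12 between Pdx1-deficient and beta arrays (limma adjusted p = 0.900 and 0.426).

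**Figure D5:**
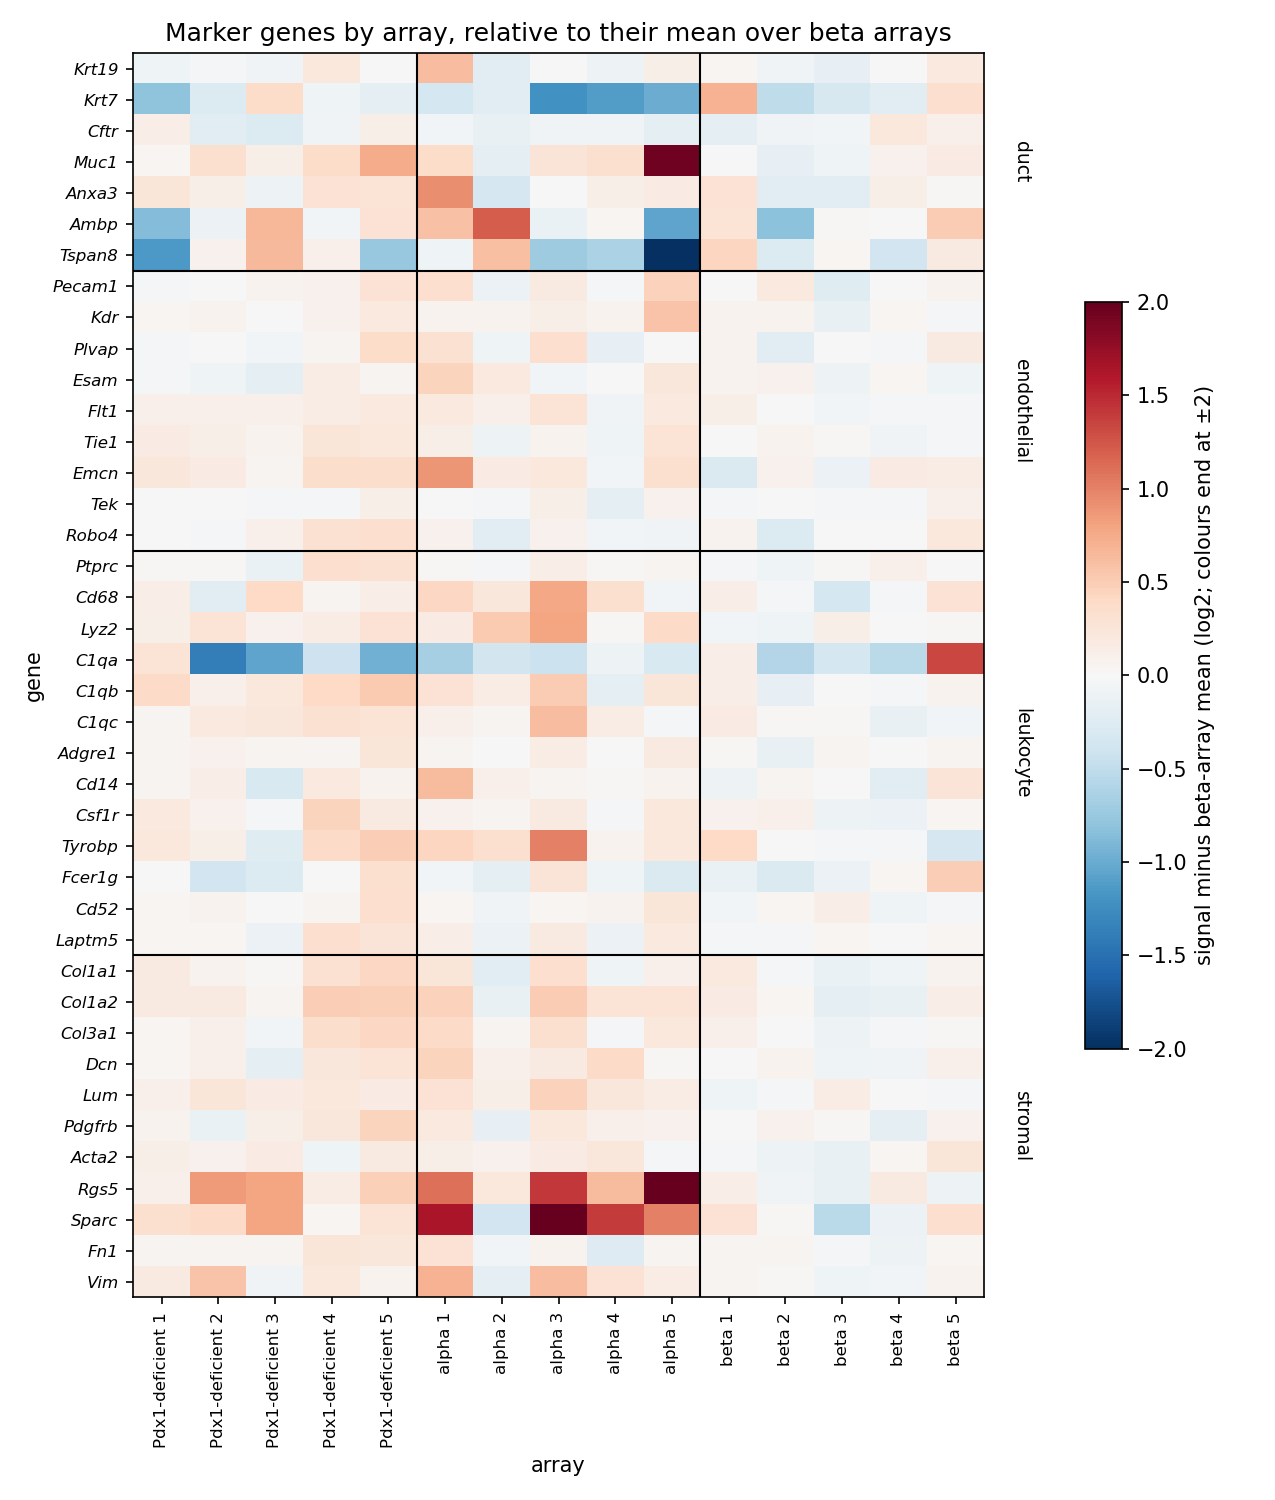
Signal of each of the 40 markers (rows, by class) on each of the 15 arrays (columns), minus the gene's mean over beta arrays, on a log2 colour scale that ends at 2 in either direction. Most rows stay pale. Rgs5 and Sparc are high in alpha replicates 1, 3, 4 and 5, and Muc1 and Tspan8 stand out in alpha replicate 5.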

How the data were processed

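RNA of 15 samples, 5 per group, was measured on Affymetrix Mouse Gene 1.0 ST arrays. The authors' tool, per the submitters' processing notes, was Affymetrix Expression Console (version not stated). The deposited values are taken as log2 signals from their range of 2.11 to 13.45, 1 per transcript cluster and array. The sources used here give no summarization method, log base or genome build. Of 35556 clusters, 21789 had 1 gene symbol in the platform annotation, 1621 had several and 12146 had none, and clusters of the last 2 kinds were not named. Of the single-symbol clusters, 21698 matched the reference gene table (GRCm38.p6, names only) and 0 symbols changed. The brightest single-symbol cluster stood for each of 19938 genes (999 had more than 1).

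Groups followed sample titles. Group means over all 15 arrays were fitted with limma 3.58.1 in R 4.3.3 (lmFit, eBayes) on the deposited values, with Benjamini-Hochberg adjustment over all genes and a threshold of 0.05, and the fit was tested on simulated data. Correlations between pairs of arrays were 0.907 to 0.979, and no arrays were identical. The number of arrays limits the precision. The markers and lists were chosen with earlier results of these data known. Values per array are given for Pdx1, for markers past the threshold, and in each class for the 3 with the largest difference and the 2 with the widest range. Further lists give genes past the threshold, or the 2 with the largest difference. Alternatives were other scalings, a filter on dim genes, other moderation, 2-group fits, a replicate block, the mean of all clusters of a gene and leaving out each array. Leaving out 2 arrays together and subtracting medians over all clusters were added after the data were seen.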

Additional observations from a re-analysis of the deposited data

Results flagged for a closer look

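Within groups of 5 arrays, the gap of the highest or lowest array to its nearest neighbour was set against the group's range (Dixon, critical value 0.71). Of 132 such tests over the markers and the class means, 11 found an array apart, where normally distributed values give about 1 in 20. Some flagged genes had repeated values, for which that rate does not hold. Kdr read 4.7629 on alpha replicates 1, 2 and 4, and Adgre1 read 4.0343 on Pdx1-deficient replicates 1, 3 and 4. In the Pdx1-deficient group, replicate 5 was high for Plvap (6.16, others 5.73 to 5.84), Tek (4.60, others 4.44 to 4.48), Adgre1 (4.21, others 4.03 to 4.06) and Cd52 (5.01, others 4.68 to 4.74). These 4 genes came from the array with a 25th percentile of 5.21. Pdx1-deficient replicate 3 was low for Cd14 (4.77, others 5.13 to 5.26). In the alpha group, replicate 5, with the acinar mean of 11.11, was high for Muc1 (7.13, others 5.02 to 5.56) and Kdr (5.26, others 4.76 to 4.82). Alpha replicate 3 was high for C1qc (5.87, others 5.23 to 5.41), and alpha replicate 1 for Cd14 (5.70, others 5.10 to 5.16). In the beta group, replicate 1 was high for Flt1 (4.87, others 4.70 to 4.74) and replicate 5 for Tek (4.58, others 4.44 to 4.47). What sets these arrays apart was not tested.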

How the results depend on the processing

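No alternative gave a marker past the threshold between Pdx1-deficient and beta arrays. Between alpha and beta arrays the count of markers was 1 as reported, 0 after quantile normalization, 0 in a fit of only these 2 groups, 0 with the replicate number as a block and 3 without alpha replicate 2 and Pdx1-deficient replicate 1, and it ran from 0 to 3 when each array was left out. Between Pdx1-deficient and alpha arrays it ran from 0 to 1 over the leave-outs, with Sparc called without alpha replicate 2. Rgs5 was not called after quantile normalization (0.97, limma adjusted p = 0.0633), in the 2-group fit (0.0626) or with the block (0.0583), and passed in 7 of 15 leave-outs. It passed without each Pdx1-deficient array, none of which enters this difference, and without alpha replicate 2 or alpha replicate 4. It failed without each beta array or alpha replicate 1, 3 or 5. Sparc passed between alpha and beta arrays with the dim genes removed (1.20, limma adjusted p = 0.0486). The Ambp difference between Pdx1-deficient and alpha arrays changed sign, with 0.12 without alpha replicate 2, 0.06 without Pdx1-deficient replicate 1 and 0.33 without both, and ran from -0.44 to 0.12 over the leave-outs. The cause was not tested.

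Over all genes, the 217 calls between Pdx1-deficient and beta arrays became 29 after quantile normalization, 389 with dim genes removed, 121 with trend and robust moderation, 89 in the 2-group fit, 8 with the block, 626 without the 2 arrays and 615 with medians over all clusters subtracted, and ran from 0 (without Pdx1-deficient replicate 5) to 548 (without Pdx1-deficient replicate 1). The 806 between alpha and beta arrays became 1425 without the 2 arrays and ran from 328 (without alpha replicate 3) to 1430 (without alpha replicate 2). The 0 between Pdx1-deficient and alpha arrays became 1 with dim genes removed, 1 with trend and robust moderation and 177 without the 2 arrays, and ran from 0 to 145 (without alpha replicate 2).

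With dim genes removed, 3 duct markers remained, with medians of -0.58 between alpha and beta and 0.36 between Pdx1-deficient and alpha arrays. C1qa was then the leukocyte class (-0.71 and -0.37 against beta for Pdx1-deficient and alpha arrays, -0.34 between them), and no endothelial marker was left. After quantile normalization the endothelial medians were -0.036 and 0.016, and the leukocyte medians -0.020 and -0.027, for Pdx1-deficient and alpha against beta arrays. Replicate numbers were not taken as pairs, because not every same-numbered pair of arrays had deviations correlated above 0.1. The correlations were -0.12 to 0.11 for Pdx1-deficient and beta arrays (1 of 5 pairs above 0.1), 0.005 to 0.22 for alpha and beta arrays (3 of 5) and -0.17 to 0.22 for Pdx1-deficient and alpha arrays (1 of 5).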
